A study of Homo sapiens with 5 samples.

Results

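A stretch of neighbouring rows in the deposited footprint tables was examined, running from row 152162 to row 157079, in which both QTGAL knockout libraries had been seen to lie under both QTMAN knockout libraries. The rows were picked by that difference, so it is given here as a description and carries no test. Of the 4918 rows in the block, 2578 have a length, and the 1500 members are those with a length and at least 100 counts summed over the 5 libraries. Of the other rows with a length, 806 had 1 to 99 counts and 272 had none. The tables hold 48695 rows that meet the same count minimum, so the block is 3.08% of them. The identifier uc060lka.1 is among the members.

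All libraries were made from HEK293T, a line of human embryonic kidney cells that carries the SV40 large T antigen. The knocked-out gene was QTRT1 in 1 library, QTGAL in 2 and QTMAN in 2. The labels give no treatment or time, and libraries of unedited cells were not analysed here. The labels do not say whether a genotype is 1 clone or several, or whether its libraries come from separate cultures, and the spread between libraries may be technical.

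Queuosine is a changed form of guanosine that tRNAs for aspartate, asparagine, histidine and tyrosine carry where they meet the wobble base of the codon. The catalytic part of the enzyme that inserts it is QTRT1. A galactose is then added by QTGAL on the tRNA for tyrosine, and a mannose by QTMAN on the tRNA for aspartate. In ribosome profiling, RNase digests what ribosomes do not cover, and the protected fragments are counted per coding sequence. Such counts rise with the amount of an mRNA and with its translation, and without RNA libraries these cannot be told apart. The tables pair no identifier with a gene, so members are given by identifier, row number and coding length, and no gene, genome position or sequence can be given for them.

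Values given as without QTRT1, QTGAL or QTMAN are those of the knockout libraries, replicate 1 before replicate 2. Total counts were 13918194 without QTRT1, 23470931 and 12002044 without QTGAL, and 18861713 and 25291912 without QTMAN. Within the block, the total of a member over the 5 libraries ran from 100 to 138053 with a median of 513.5, and 495 members reached 1000. The median member had 75 counts without QTRT1, 112 and 65 without QTGAL, and 112 and 145 without QTMAN. Coding lengths ran from 10 to 5257 codons with a median of 211, against 281 in the rest of the tables. The median level was 5.52 CPM (counts scaled to a library of 1000000), against 5.69 in the rest, and the median density was 2.24 counts per codon, against 1.93.

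Members are not independent of each other. The 1500 members held 1299 distinct sets of counts, so some rows repeat the counts of others. Neighbouring members with counts per codon within 2-fold of each other were joined, which left 208 runs, the longest of 44 rows, with 34 runs of a single row. Values are therefore given over all members and, in places, with the row of the highest count standing for its run.

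Across the block QTGAL footprint levels lay under QTMAN levels by a median of 0.27 on the log2 scale (median difference QTGAL minus QTMAN -0.27, with quartiles of -0.43 and -0.12). This is a ratio of 0.828. With 1 row per run the median was also -0.27. Over the rest of the tables the median difference was 0.01, with quartiles of -0.14 and 0.16. In the block 84.0% of members had a negative difference, against 48.4% in the rest.

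Each library was also set against the median of the 5 libraries, member by member. QTGAL replicate 1 had a median deviation of -0.16 (log2 CPM) and lay under the median of 5 in 74.6% of members. QTGAL replicate 2 had a median deviation of -0.01 and lay under it in 50.7%. QTMAN replicates 1 and 2 had median deviations of 0.12 and 0.11 and lay above it in 65.5% and 67.0% of members. The QTRT1 library had a median deviation of 0, with 43.7% of members under the median of 5 and 32.8% above it. One library defines the median in each row, so these deviations are pulled towards 0, and the low side was carried more by QTGAL replicate 1 than by replicate 2.

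All 4 pairings of a QTGAL with a QTMAN library had the same direction. QTGAL replicate 1 differed from QTMAN replicates 1 and 2 by a median of -0.33 and -0.34 (log2), and QTGAL replicate 2 by -0.23 and -0.22. The libraries of a genotype differed less, with QTGAL replicate 1 lower than replicate 2 by a median difference of -0.11 and QTMAN replicates 1 and 2 apart by 0.02. In the rest of the tables these 6 medians lay between -0.02 and 0.02.

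Both QTGAL libraries lay under both QTMAN libraries in 867 of 1500 members, or 57.8%, where the share over all rows of at least 100 counts was 18.2%. Both lay above in 42 members, or 2.80%, against 18.8% over all rows, and in 591 members the genotypes overlapped. Of the 208 runs, 131 had both QTGAL libraries lower (63.0%) and 3 had both higher (1.44%), against 15.9% and 20.4% of the runs in the rest of the tables. The contrast is the one that picked the rows, so these shares describe the block and are no evidence for it.

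Footprints summed over the 208 runs, 1 row each, came to 7876 CPM without QTRT1, 7134 and 7866 CPM without QTGAL, and 9030 and 9510 CPM without QTMAN. Some footprints enter these sums more than once, since the runs of rows 154185 and 154192 held the same counts. The mean sums were 7500 ± 517 CPM without QTGAL and 9270 ± 339 CPM without QTMAN (SD, n = 2 each), or 0.809 of the QTMAN level. Without the run of uc060lka.1, the most abundant, they were 6288 ± 453 CPM without QTGAL and 7554 ± 142 CPM without QTMAN (SD, n = 2 each), or 0.832 of it. The QTRT1 sum lay just above the higher QTGAL library in the first case and between the QTGAL libraries in the second, at 6457 CPM.

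**Figure D1:**
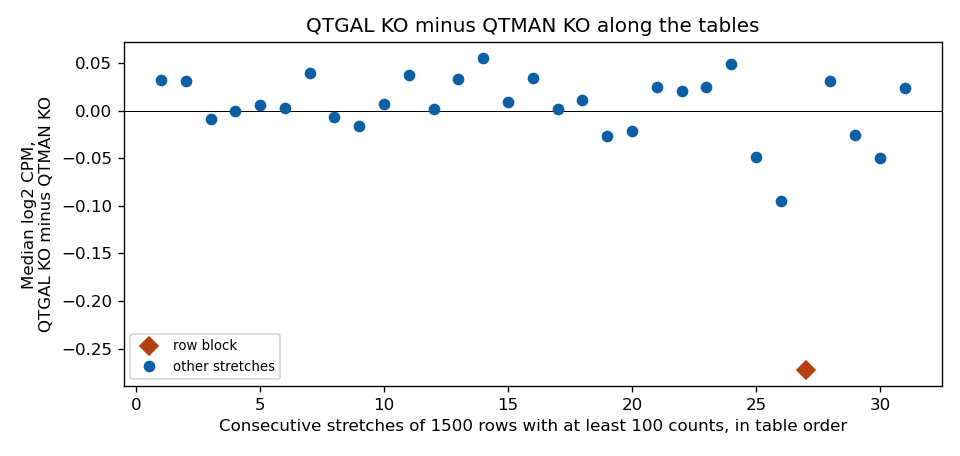
Median difference in footprint level, QTGAL knockout minus QTMAN knockout (log2 CPM, y axis), in consecutive stretches of 1500 rows of at least 100 counts in table order (x axis). The diamond is the row block at -0.27, and the circles are the 30 other stretches, from -0.09 to 0.06.

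Cut into consecutive stretches of the same number of rows, the rest of the tables gave 30 others. Their median differences ran from -0.09 to 0.06. The lowest of them, rows 146519 to 152147, ends just before the block. The share of rows with both QTGAL libraries lower ran from 11.9% to 23.7% in these stretches. Since the block was picked for its difference, its place at the low end of the plot along the tables follows from that choice and is no finding.

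The block was then read in 15 windows of 100 members each, to see where the order of the libraries changes. In 14 windows both QTGAL medians lay under both QTMAN medians, and the difference ran from -0.41 to -0.14. In these windows between 34.0% and 76.0% of members had both QTGAL libraries lower. QTGAL replicate 1 lay under replicate 2 in all 15 windows. QTMAN replicate 1 lay over replicate 2 in 8 windows and under it in 7, so the order within QTMAN was not fixed.

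The QTRT1 library moved through the others along the rows. In the first window, rows 152162 to 152534, it was the lowest of the 5 at -0.19, against -0.09 and 0 without QTGAL and 0.10 and 0.12 without QTMAN. It lay between the QTGAL libraries in 6 windows, level with the upper one in 1, and between the genotypes in 6. These positions hold for deviations from the median of 5. Centred on the mean of 5, it lay above QTGAL replicate 2 in windows 7 and 10 and above QTMAN replicate 1 in window 13, rows 156058 to 156267, where the median-centred values were 0.019 for QTRT1 and 0.023 for QTMAN replicate 1. In rows 155519 to 155871 it stood at 0.06, against -0.27 and -0.24 without QTGAL and 0.12 and 0.13 without QTMAN, and the difference QTGAL minus QTMAN was at its largest there, at -0.41. In the last window, rows 156616 to 157079, it was the highest at 0.48, against -0.07 and 0 without QTGAL and -0.02 and 0 without QTMAN.

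**Figure D2:**
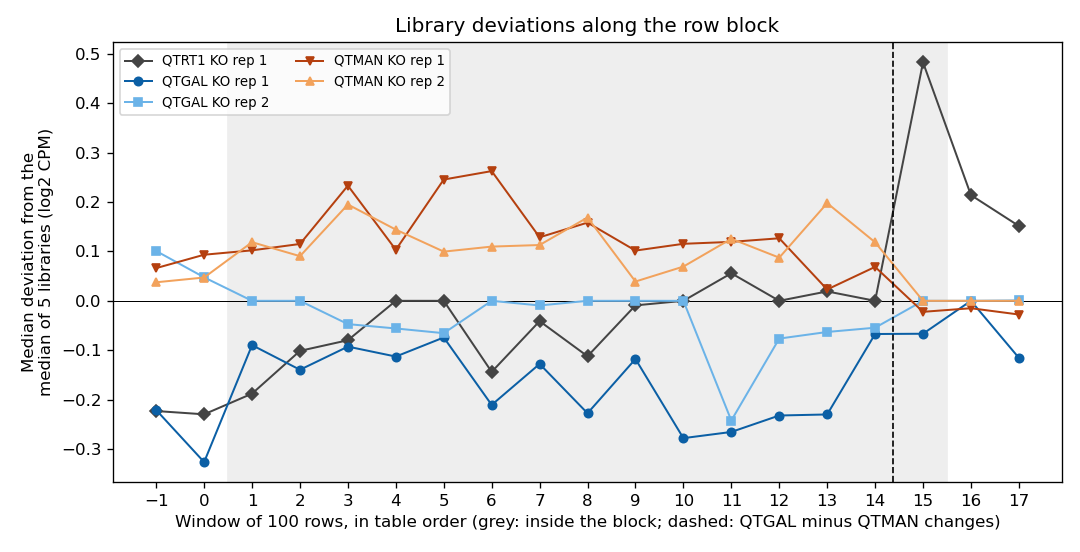
Median deviation of each library from the median of the 5 libraries (log2 CPM, y axis) in windows of 100 rows in table order (x axis), with the 15 windows of the block in grey and 2 windows on either side. Both QTGAL libraries lie under both QTMAN libraries in windows 1 to 14, and in window 15 the QTRT1 library lies at 0.48 over the other 4.

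A single change of level was placed over the 208 runs where the absolute deviations about the medians of both sides were smallest, with at least 15 runs a side. For QTGAL minus QTMAN it fell between rows 156561 and 156593. For the QTRT1 deviation, placed by itself, it fell between rows 156626 and 156650, which is 2 runs further on. That place leaves 15 runs after it, the fewest the search allowed, so the best place may lie further on. The nearness of both places is therefore not a result. Both places were found from these values and are descriptions.

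Before the change, 1387 members in 191 runs had a median difference QTGAL minus QTMAN of -0.29. The median deviations there were 0 without QTRT1, -0.16 and -0.01 without QTGAL, and 0.14 and 0.12 without QTMAN. Both QTGAL libraries were lower in 60.1% of these members and higher in 1.37%. Among the 191 runs, 65.4% had both QTGAL libraries lower and 0% had both higher. After the change, 113 members in 17 runs had a median difference of 0.07, with both QTGAL libraries lower in 30.1% and higher in 20.4%. Over all rows of at least 100 counts these shares were 18.2% and 18.8%. Within the block, the negative median difference lay in rows 152162 to 156561, a border found from this same difference. The 100 rows just before the block also had a negative median difference, of -0.20. The last 113 members did not have it in their median, although their share with both QTGAL libraries lower was still above that over all rows.

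The QTRT1 library stood apart in those last members. Over all 1500 members it was the highest of the 5 libraries in 19.3% and the lowest in 24.5%, where these shares were 24.4% and 25.2% over all rows of at least 100 counts. After the change it had a median deviation of 0.48 and was the highest in 82.3% of the 113 members. This did not end with the block. In the first 100 rows after it the QTRT1 library stood at 0.21, the highest in 62% and the lowest in 3%. Before the change the QTRT1 library was the highest in 14.1% of members and the lowest in 26.1%. With 1 row per run, its deviation after the change was 0.37. The footprints of the 17 runs summed to 395 CPM without QTRT1, 315 and 322 CPM without QTGAL, and 303 and 314 CPM without QTMAN. The QTRT1 sum lay above the other 4, and with 1 QTRT1 library its own spread could not be measured.

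The single runs around the change varied in their order. Row 156396, of 188 codons, stood at 3.92 CPM without QTRT1, 3.48 and 3.29 CPM without QTGAL, and 4.56 and 4.51 CPM without QTMAN. Row 156397, of 228 codons, stood at 2.21 CPM without QTRT1, 0.755 and 1.01 CPM without QTGAL, and 1.57 and 1.19 CPM without QTMAN. QTGAL was the lower genotype in both, and the QTRT1 library was the highest in the second, at 120 counts in all. Row 156469, of 661 codons, stood at 14.95 CPM without QTRT1, 11.1 and 10.6 CPM without QTGAL, and 10.1 and 13.8 CPM without QTMAN. There the genotypes overlapped and the QTRT1 library was the highest, already before the change. Row 156524, of 1193 codons, stood at 38.2 CPM without QTRT1, 32.0 and 36.4 CPM without QTGAL, and 37.4 and 44.9 CPM without QTMAN. Row 156561, of 362 codons and the last before the change, stood at 1.14 CPM without QTRT1, 0.629 and 0.758 CPM without QTGAL, and 2.73 and 1.88 CPM without QTMAN. In these last 2 runs before the change the QTGAL libraries were under the QTMAN libraries, row 156561 at 138 counts in all. Row 156607, of 658 codons and after the change, stood at 15.02 CPM without QTRT1, 11.9 and 12.4 CPM without QTGAL, and 12.8 and 14.8 CPM without QTMAN, so QTGAL was still the lower one there. Row 156740, of 2006 codons, stood at 40.6 CPM without QTRT1, 33.2 and 35.1 CPM without QTGAL, and 28.6 and 34.8 CPM without QTMAN, where the genotypes overlapped and the QTRT1 library was the highest. Row 156756, of 1054 codons, went the other way for QTRT1, with 0.498 CPM without QTRT1, 1.47 and 2.02 CPM without QTGAL, and 2.36 and 3.03 CPM without QTMAN.

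**Figure D3:**
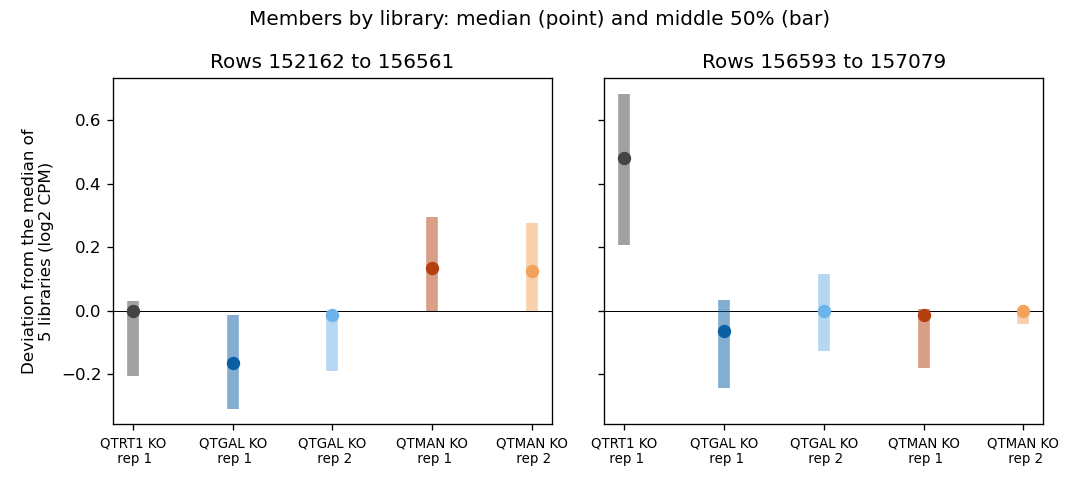
Deviation of each library from the median of the 5 libraries (log2 CPM, y axis) over members before the change (left, 1387 members) and after it (right, 113 members), with points at the median and bars between the quartiles. On the left both QTMAN points lie above both QTGAL points, and on the right only the QTRT1 bar lies wholly above 0, at a median of 0.48.

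Rows just outside the block were compared with those just inside. In the 100 rows before it, 151767 to 152147, deviations were -0.23 without QTRT1, -0.33 and 0.05 without QTGAL, and 0.09 and 0.05 without QTMAN. QTGAL replicate 2 thus lay level with the QTMAN libraries there and replicate 1 well under them, with a median difference of -0.20. Both QTGAL libraries were lower in 39% of these rows. The first 100 members of the block, rows 152162 to 152534, had a median difference of -0.15, with both lower in 43%. Over members the difference thus did not begin at the edge of the block. With 1 row per run the medians were -0.09 before the block and -0.24 in its first 100 members. In the first 100 rows after the block, 157080 to 157549, deviations were 0.21 without QTRT1, 0 and 0 without QTGAL, and -0.02 and 0 without QTMAN, with a median difference of -0.04. The last 100 members of the block had a median difference of 0.07. At the count minimum, the 83 members with 100 to fewer than 120 counts had a median difference of -0.21. The 71 rows of the block with 80 to fewer than 100 counts, which were left out, had one of -0.35.

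Coding length ordered the size of the difference weakly. Members of up to 150 codons (507) had a median difference of -0.34, those over 150 and up to 300 (434) one of -0.27, those over 300 and up to 600 (316) one of -0.26 and those over 600 (243) one of -0.22. In the rest of the tables the same classes stood at -0.02, -0.01, 0.04 and 0.04, so short rows were also the lower ones outside the block. Set against the rest, the classes of the block lay at -0.32, -0.25, -0.29 and -0.25, which no longer runs in order of length. Both QTGAL libraries were lower in 57.8%, 60.8%, 57.3% and 53.1% of members, from the shortest class to the longest. The rest of the tables had 18.1%, 19.0%, 15.3% and 15.1%, so the longest rows had the lowest share there too. With 1 row per run the medians were -0.35, -0.29, -0.27 and -0.25, the first over 29 runs only. After the change of order the medians over members were -0.03, -0.10, 0.09 and 0.09, over 22, 41, 24 and 26 members.

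The libraries kept their order over the length classes except for QTMAN. QTMAN replicate 1 stood at 0.15 and replicate 2 at 0.11 among the shortest members, and at 0.07 and 0.13 among the longest. QTGAL replicate 1 stood between -0.17 and -0.13 in the 4 classes and replicate 2 between -0.06 and 0. The QTRT1 library stood at 0 in each.

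By abundance, the size of the difference was nearly level and its clarity was not. The members were split by mean CPM into 3 classes of 500. The low class, up to 3.24 CPM, had a median difference of -0.25, the middle class one of -0.27 and the high class, over 10.5 CPM, one of -0.29. The quartiles were -0.51 and -0.04 in the low class, and -0.43 and -0.16 in the high class. Both QTGAL libraries were lower in 46.0%, 56.8% and 70.6% of members from low to high, where the rest of the tables had 17.1%, 16.1% and 17.7%. The counting error of a single member's difference had a median of 0.24, 0.14 and 0.07 (log2 SE from the counts alone) in the same order. In the low class the difference was therefore about as large as the counting error of 1 member. Before the change of order, 0% of the high class had both QTGAL libraries higher, and 74.4% had both lower. After it the low, middle and high classes had median differences of -0.07, 0.07 and 0.08, over 69, 13 and 31 members. The low class thus stayed negative. With 1 row per run the medians were -0.16, -0.31 and -0.27, over 41, 56 and 111 runs, so the low class stood nearer to 0 once neighbouring rows were joined. Median deviations in the low class were 0 without QTRT1, -0.14 and -0.03 without QTGAL, and 0.08 and 0.01 without QTMAN. In the middle class they were -0.01, then -0.15 and 0, then 0.13 and 0.13, in the same order. In the high class they were 0, then -0.18 and -0.04, then 0.14 and 0.14.

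**Figure D4:**
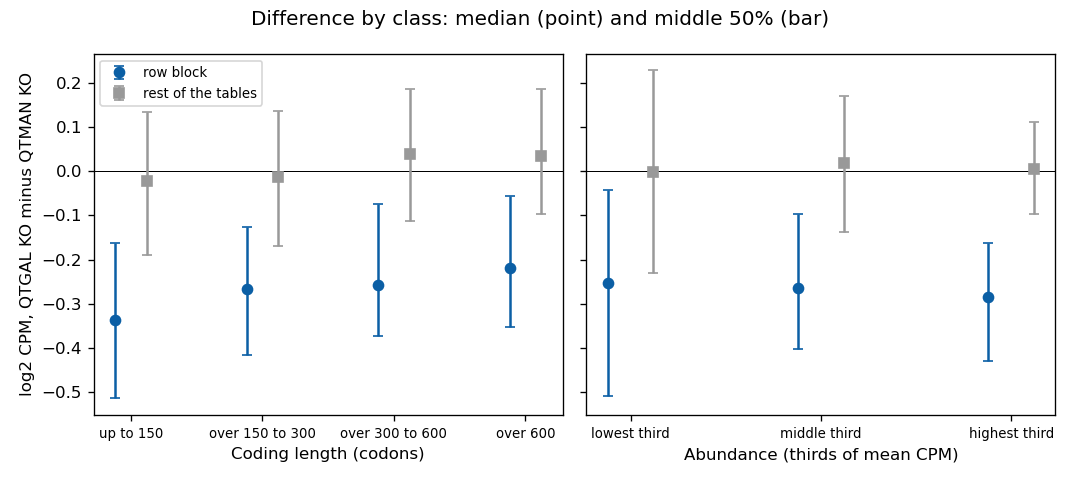
Difference in footprint level, QTGAL knockout minus QTMAN knockout (log2 CPM, y axis), by coding length (left) and by abundance (right), with circles for the row block and squares for the rest of the tables, at the median with bars between the quartiles. The block lies between -0.34 and -0.22 in the length classes and between -0.29 and -0.25 in the abundance classes, and the rest lies near 0.

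The most abundant run of the block spans rows 155849 to 155865, with 12 members of 133 to 376 codons and 10 distinct sets of counts. All 12 had both QTGAL libraries under both QTMAN libraries, with differences from -0.66 to -0.50 (log2). The member uc060lka.1, of 164 codons at row 155864, stood at 506 CPM without QTRT1, 424 and 397 CPM without QTGAL, and 606 and 691 CPM without QTMAN. The QTRT1 library lay between the genotypes, which did not overlap. The mean was 411 ± 19.2 CPM without QTGAL, against 649 ± 59.9 CPM without QTMAN (SD, n = 2 each). Its difference of -0.66 was the largest of the run.

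The row with the highest count of that run is uc002kal.3, of 376 codons at row 155849. It stood at 1419 CPM without QTRT1, 1167 and 1257 CPM without QTGAL, and 1577 and 1855 CPM without QTMAN. Its difference was -0.50, at the small end of the run. The order of the libraries was the same as for uc060lka.1, except that QTGAL replicate 2 lay above replicate 1. The 12 rows hold repeated sets of counts, so they do not give 12 observations.

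Of 74 runs with at least 20 CPM, 56 had both QTGAL libraries lower, 2 had both higher and 16 overlapped. In the rest of the tables, rows over 10.5 CPM, not joined into runs, had both lower in 17.7% and both higher in 19.5%. The block was picked by this contrast, so these counts are a description. The next lowest differences after this run lay at rows 154873 (628 codons), 152543 (277 codons), 155324 (143 codons) and 152988 (222 codons), at -0.48, -0.47, -0.45 and -0.44. They are spread over the block and over coding lengths. Row 154873 stood at 51.4 CPM without QTRT1, 37.6 and 59.9 CPM without QTGAL, and 67.1 and 65.5 CPM without QTMAN, so the QTGAL replicates differed by more than the nearer of them did from QTMAN. Row 155324 stood at 62.3 CPM without QTRT1, 44.7 and 38.5 CPM without QTGAL, and 56.2 and 57.0 CPM without QTMAN, with the QTRT1 library above all others.

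Among the 10 most abundant runs, 6 had both QTGAL libraries lower and none had both higher (0). Of all runs in the rest of the tables, at any abundance, 15.9% had both lower and 20.4% both higher. This tally too describes a block picked by that contrast. Row 152977, of 1676 codons, stood at 376 CPM without QTRT1, 335 and 360 CPM without QTGAL, and 488 and 445 CPM without QTMAN, without overlap. Row 156263, of 2512 codons, stood at 412 CPM without QTRT1, 340 and 352 CPM without QTGAL, and 345 and 486 CPM without QTMAN, where QTMAN replicate 1 lay within the QTGAL values. Row 154185, of 71 codons, stood at 311 CPM without QTRT1, 313 and 425 CPM without QTGAL, and 420 and 412 CPM without QTMAN. There QTGAL replicate 2 was the highest of all. Row 154192, another of these 10 runs, held the same counts, so this set of counts enters the tally more than once.

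Both abundant runs with QTGAL higher lie after the change of order. That change was placed by this same difference, so their side of it follows in part from the placing. The member uc010dka.2, of 314 codons at row 156650, stood at 99.0 CPM without QTRT1, 78.9 and 76.7 CPM without QTGAL, and 66.4 and 71.6 CPM without QTMAN, a difference of 0.17. The member uc002kkf.2, of 495 codons at row 156598, stood at 47.8 CPM without QTRT1, 57.3 and 58.7 CPM without QTGAL, and 53.6 and 55.1 CPM without QTMAN, a difference of 0.09. The QTRT1 library was the highest in the first and the lowest in the second. The 19 members before the change with both QTGAL libraries higher had a median of 203 counts over the 5 libraries, and no run was represented by one of them.

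**Figure D5:**
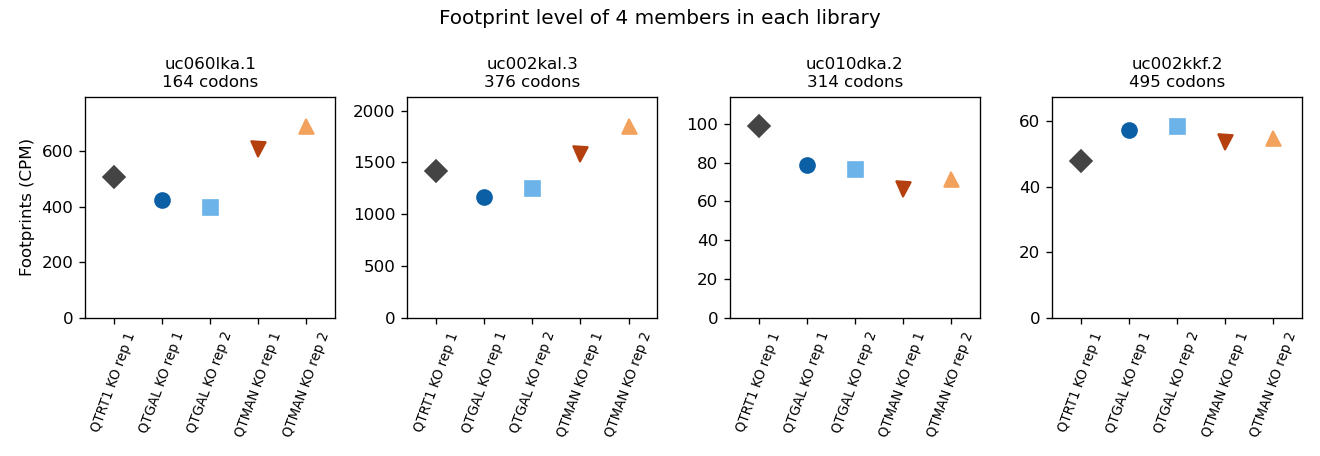
Footprint level (CPM, y axis from 0) of 4 members in each of the 5 libraries (x axis), 1 point per library. In uc060lka.1 and uc002kal.3 the QTGAL points lie under and the QTMAN points above the QTRT1 point, while in uc010dka.2 and uc002kkf.2 the QTGAL points lie above the QTMAN points.

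Across all 60966 transcripts tested with edgeR's quasi-likelihood test, 0 of the 1500 members were called between QTGAL and QTMAN knockout at an adjusted p under 0.05, where 0% of all tested transcripts were called in either direction. At an unadjusted p under 0.05, 422 members were lower (28.1%, against 3.30% of all tested) and 4 were higher (0.267%, against 3.19%). The rule used this contrast, and nothing is read from these counts. DESeq2 called 12 members, all lower, and all 12 are the run of uc060lka.1; no other transcript was called among the 4696 to which it gave an adjusted p. Without QTMAN replicate 1, edgeR called the same 12, of 71 calls among all 60246 tested, and without QTMAN replicate 2 it called 54 members, all lower, of 506 calls among all 59191 tested.

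The QTRT1 library was compared with the mean of both other genotypes, a contrast that the rule did not use but that shares its libraries. The members' log2 fold changes had a median of -0.055, against -0.0019 over all tested transcripts, and 42.8% were positive. One member was called higher and 0 were called lower, or 0.0667% and 0% of members, where 0.121% and 0.0394% of all tested transcripts were called. Without QTMAN replicate 2, 47 members were called, 37 of them higher, of 1438 calls among all 59191 tested, and without QTGAL replicate 1, 0 were, of 95 calls among all 59119. At an unadjusted p under 0.05, 101 members were higher (6.73%, against 5.69% of all tested) and 111 lower (7.40%, against 5.55%). Before the change of order 48 members were higher and 110 lower at this level, and after it 53 were higher and 1 was lower, out of 1387 and 113 tested. The border was found from these same libraries, and the 113 members are 17 runs with 1 QTRT1 library. These counts are therefore a description, and nothing is read from them. After the change the median log2 fold change was 0.50, with 93.8% positive, and 0 members were called.

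The member called was uc002jmj.5, of 789 codons at row 154362, given because it is the only call. It stood at 4.63 CPM (65 counts) without QTRT1, 1.26 and 1.77 CPM without QTGAL, and 1.36 and 1.31 CPM without QTMAN. The QTRT1 library lay above the other 4, which overlapped each other. The log2 fold change, with its SE, was 1.72 ± 0.29 and its adjusted p in edgeR 0.0446, on 1 QTRT1 library. Without QTGAL replicate 1 it was not called (edgeR adjusted p = 0.0723), and over the other edgeR settings in which it was tested the adjusted p ran from 0.000226 to 0.0361.

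The other members given by identifier did not pass this test. For uc060lka.1 the log2 fold change of QTRT1 against both was -0.03 ± 0.11 (SE, edgeR adjusted p = 0.957), and for uc002kal.3 it was -0.02 ± 0.11 (SE, edgeR adjusted p = 0.967). For uc010dka.2 it was 0.43 ± 0.12 (SE, edgeR adjusted p = 0.199), and for uc002kkf.2 it was -0.23 ± 0.13 (SE, edgeR adjusted p = 0.537). Row 156756, given above by number, had a log2 fold change of -2.09 ± 0.47 (SE), with 7 counts in the QTRT1 library, and was not called either. These intervals are those of the model, in which the single QTRT1 library is taken to vary like the others.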

How the data were processed

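Per the labels' protocols, footprints from RNase I digestion were gel-selected, ligated, depleted of ribosomal RNA and amplified, with no molecular identifiers mentioned, so counting errors cover reads only. The submitters' processing notes name bcl2fastq 2.19, CASAVA, STAR 2.7.0a and hg38. The sources used here do not give the annotation, the counting program or the strand setting. The deposited tables hold raw counts per transcript, 1 table per library, and a length column of another unit, read as codons. Overlapping and paralogous genes may share counts.

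Groups follow the genotype label, and replicates are numbered in accession order. CPM values were computed here from counts and TMM-scaled library sizes, with a prior of 0.5 counts before log2. edgeR 4.0.16 (filterByExpr, TMM, glmQLFit, glmQLFTest, 1 mean per genotype, 2 residual degrees of freedom) was fitted to all transcripts with a length, with Benjamini-Hochberg adjustment over the 60966 tested; all 1500 members passed the filter. It was tested on simulated data. The changes set there were larger than the median difference of the block, so detection at that size was not checked. DESeq2 1.42.0, other factors and filters, a replicate block and leaving out each library were alternatives.

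The block, its members and all classes were chosen with earlier results of these data known. Named members were uc060lka.1 and, with 1 row per run, at least 20 CPM and no overlap, the one of lowest and the 2 of highest QTGAL minus QTMAN difference. Other rows are given by number, from the same rule's lists of 8 lowest differences, 10 highest levels and runs within 5 of the change of order; uc002jmj.5 was chosen after its values were seen.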

Additional observations from a re-analysis of the deposited data

How the results depend on the processing

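The median difference over members, -0.27, ran from -0.29 to -0.24 under raw totals, DESeq2 size factors, a prior of 5 counts, a minimum of 1000 counts and 1 row per run. It ran from -0.34 (without QTGAL replicate 2) to -0.22 (without QTGAL replicate 1) when 1 library was left out. The share of members with both QTGAL libraries lower stayed within 1.5 times of 57.8% in each of these, and was 64.1% to 78.6% with 1 library left out, where 32.4% to 36.8% of all rows met the looser condition. The QTRT1 deviation was -0.059 before the change and 0.40 after it when centred on the mean of the 5 libraries, and 0.37 after it with 1 row per run. Mean centring also put QTGAL replicate 2 at -0.072 before the change (-0.012 by the median) and, after it, QTGAL replicate 1 at -0.14 (-0.064), QTGAL replicate 2 at -0.054 (0) and QTMAN replicate 1 at -0.098 (-0.013). Raw totals put QTMAN replicate 2 at 0.069 before the change (0.12 with TMM).

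For QTGAL against QTMAN, members called numbered 12 with DESeq2, 33 with no filter on low counts (of 282 calls among all 79348 tested), and 0 to 54 when 1 library was left out, all lower. Calls among all tested then numbered 9 and 66 without QTGAL replicates 1 and 2, where 0 members were called, and 71 and 506 without QTMAN replicates 1 and 2, where 12 and 54 were. For QTRT1 against both, they numbered 0 with DESeq2 (of 175 calls among 16884 with an adjusted p), 0 with at least 5 CPM in 2 libraries (of 9 among 27375), 36 with no filter (27 of them higher, of 1161 calls among all 79348 tested), and 0 to 47 when 1 library was left out, against 95 calls among all tested without QTGAL replicate 1 and 1438 without QTMAN replicate 2. At least 5 CPM in 2 libraries left out uc002jmj.5, and DESeq2 gave it no adjusted p; the cause of the other changes was not tested. With the replicate block, 12 members were called for QTGAL against QTMAN (49 of all tested) and 6 for QTRT1 against both (464 of all tested), with 1 residual degree of freedom. Same-numbered QTGAL and QTMAN libraries deviated together at r = 0.169 across 60966 transcripts, and no label says that the numbers pair libraries. Depth limits single members under about 3.24 CPM, whose counting error is near the size of the difference.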
